A study of Mus musculus with 11 samples.

Results

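The genes described here encode the subunits of the 5 oxidative phosphorylation complexes of mouse mitochondria. They were taken from the deposited gene table by name: protein-coding genes named as NADH dehydrogenase (Nduf), succinate dehydrogenase (Sdh), ubiquinol-cytochrome c reductase (Uqcr), cytochrome c oxidase (Cox4 to Cox8) or ATP synthase (Atp5) subunits, and the protein-coding genes of mitochondrial DNA. Complex I assembly factors named Ndufaf were left out. This gave 101 of the 55487 listed genes, of which 88 are nuclear and 13 are encoded by mitochondrial DNA. By complex, the nuclear genes number 37 for complex I, 4 for complex II, 8 for complex III, 21 for complex IV (Ndufa4 and its paralog Ndufa4l2 included) and 18 for complex V, and the mitochondrial genes number 7, 0, 1, 3 and 2.

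The respiratory chain passes electrons from NADH and succinate through complexes I to IV to oxygen and pumps protons across the inner mitochondrial membrane, and complex V lets them flow back to make ATP. Most subunits are made from nuclear genes and imported, while a small core of complexes I, III, IV and V is translated inside the mitochondrion, so both genomes have to supply parts of the same machine. Complex II is the exception, with nuclear subunits throughout, and it is also an enzyme of the citric acid cycle. Several complex IV subunits exist as an ordinary form and as a second form known from muscle, lung or cells short of oxygen. Activated T cells and tumour cells are both known to combine respiration with high glycolysis.

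RNA was measured by bulk sequencing in 11 libraries from a study of FGF21 made by tumour cells. The tumour cells were MC38, from a mouse colon carcinoma, with either a control hairpin (shNC) or one that targets Fgf21 (shFgf21). T cells sorted from such tumours gave 3 shNC libraries and 2 shFgf21 libraries, and these are called sorted libraries here. Libraries labelled as tumours gave 3 shNC (numbered 1, 2 and 6) and 3 shFgf21 (numbered 1, 2 and 3). In both kinds of sample the hairpin was in the tumour cells: the control groups are labelled WT and the others as FGF21 knockdown, except that the genotype label of shFgf21 sorted replicate 2 reads FGF22 although its title matches its partner. The sorted titles each join several numbers, which may mean pooled animals, and strain, sex and age are not given in the labels. For the tumour libraries the labels give tissue (tumour), line (MC38) and cell type (mesenchymal), and whether the cells came from grown tumours is not stated. Nothing says that replicates came from separate animals or cultures, so a p-value here reflects library-to-library spread only, and that can be technical.

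Library totals ran from 14944013 to 19099350 counts. Fgf21 had 0, 2 and 1 counts in shNC tumours and 0 in the other 8 libraries, where a count of 0 allows up to 0.173 to 0.213 CPM (counts scaled to the library total), so the knockdown could not be checked at this depth. The 15 T cell markers summed to 417 to 809 CPM in sorted libraries and 1.21 to 3.05 CPM in tumours, where Cd3e, Cd2 and Cd8b1 were at 0. The 12 macrophage and monocyte markers summed to 11550 to 19271 CPM in sorted libraries and 33.3 to 47.8 CPM in tumours, and 6 mesenchymal markers to 12098 to 14438 and 14552 to 17771 CPM. The sorted libraries thus held macrophage and mesenchymal transcripts far above their T cell transcripts, and every value below is a level in that mixture. The part of this mixture in each result was not tested.

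Per unit of gene length, the mitochondrially encoded subunits stood far above the nuclear ones. These levels are the deposited FPKM (fragments scaled to gene length and library total), given as the median over the libraries of 1 kind. In sorted libraries mt-Co1, the catalytic subunit of complex IV, was highest at 10748 FPKM, with libraries from 9062 to 12836. Cox8a, a small structural subunit, was the highest nuclear gene of complex IV at 147 FPKM (121 to 183). In tumours the corresponding values were 7683 FPKM for mt-Co1 (6035 to 9164) and 124 FPKM for Cox6a1 (107 to 159), another structural subunit. The lowest mitochondrial gene, mt-Nd3 of complex I, was at 239 FPKM in sorted libraries and 188 FPKM in tumours, which is still above every nuclear member of any complex.

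Among nuclear genes the complexes overlapped in level. The highest complex I gene was Ndufa2, an accessory subunit, at 97.6 FPKM in sorted libraries and 68.3 in tumours. The lowest was Ndufs3, a core subunit of the peripheral arm, at 0.344 and 0.471 FPKM. Ndufs3 had 17 to 36 counts per library. Gene models of the files overlap at several members, and reads of overlapping genes and of pseudogenes such as Ndufb4c, Ndufab1-ps and Cox7c-ps1 cannot be assigned with certainty. Low levels of Ndufb4, Ndufab1 and Cox7c are therefore uncertain. Ndufs3 overlaps Kbtbd4 by 88 bases, and Kbtbd4 had 25 counts against 274 for Ndufs3 over all libraries. The origin of the low Ndufs3 level was not tested, and that level is uncertain too. In complex II, Sdha, the flavoprotein, was lowest at 24.5 and 22.8 FPKM, and Sdhd, a membrane anchor, highest at 76.5 and 71.0 FPKM. In complex III the range ran from Uqcr11 (19.4 and 10.1 FPKM) to the Rieske iron-sulfur protein Uqcrfs1 (63.1 and 53.7 FPKM). In complex V, Atp5a1, the alpha subunit of the catalytic head, was highest at 97.1 and 134 FPKM, and a second identifier named Atp5o had 5 counts in 1 library and 0 in the rest. Of the 3 genes for the identical c subunit of the rotor ring, Atp5g3 carried most counts (1782 to 2858 per library), Atp5g1 197 to 377 and Atp5g2 56 to 108, which compares counts and not levels per length.

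With the Fgf21 hairpin, no member passed the test in either kind of sample. In sorted libraries 84 nuclear and 13 mitochondrial members were tested, 0 were called, and 0.079% of all 16454 genes tested were (edgeR quasi-likelihood test, adjusted p under 0.05). In tumours 82 and 13 were tested, 0 were called, and 0.0334% of 14950 genes were. At an unadjusted p under 0.05 there were 6 members in sorted libraries and 6 in tumours, against 11.2% and 6.22% of all genes, and DESeq2 called 0 members in both. The median log2 fold change, shFgf21 minus shNC, of the nuclear members was 0.06 in sorted libraries and 0.09 in tumours, beside -0.01 and -0.007 over all genes tested. By complex the nuclear medians ran from 0.05 to 0.11 in sorted libraries and from 0.08 to 0.11 in tumours. Without shFgf21 sorted replicate 2 the first median was -0.06, and without shFgf21 tumour replicate 1 the second was -0.05. In these libraries the nuclear members of all lengths lay above the mean of all libraries of that kind, both hairpins together. The median deviations were 0.18 and 0.29 (log2). By the gene length that the FPKM imply, members under 1200 bases deviated by 0.27 and 0.43, beside 0.14 and 0.22 for all protein-coding genes of that length, and members over 4000 bases by 0.16 and 0.26, beside 0.02 and -0.02. Marker lists also differed in the sorted hairpin comparison, where no marker of these lists passed. The medians were 0.54 for 12 macrophage and monocyte markers, -0.40 for 15 T cell markers, -2.29 for the 5 neutrophil markers tested (4 lower at an unadjusted p under 0.05) and 1.65 for the 3 erythroid markers tested (3 higher). The neutrophil list took 0.00745 to 0.0143% of counts in shNC and 0.00564 and 0.00631% in shFgf21 sorted libraries. The part of these cells in the members' values was not tested.

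**Figure D1:**
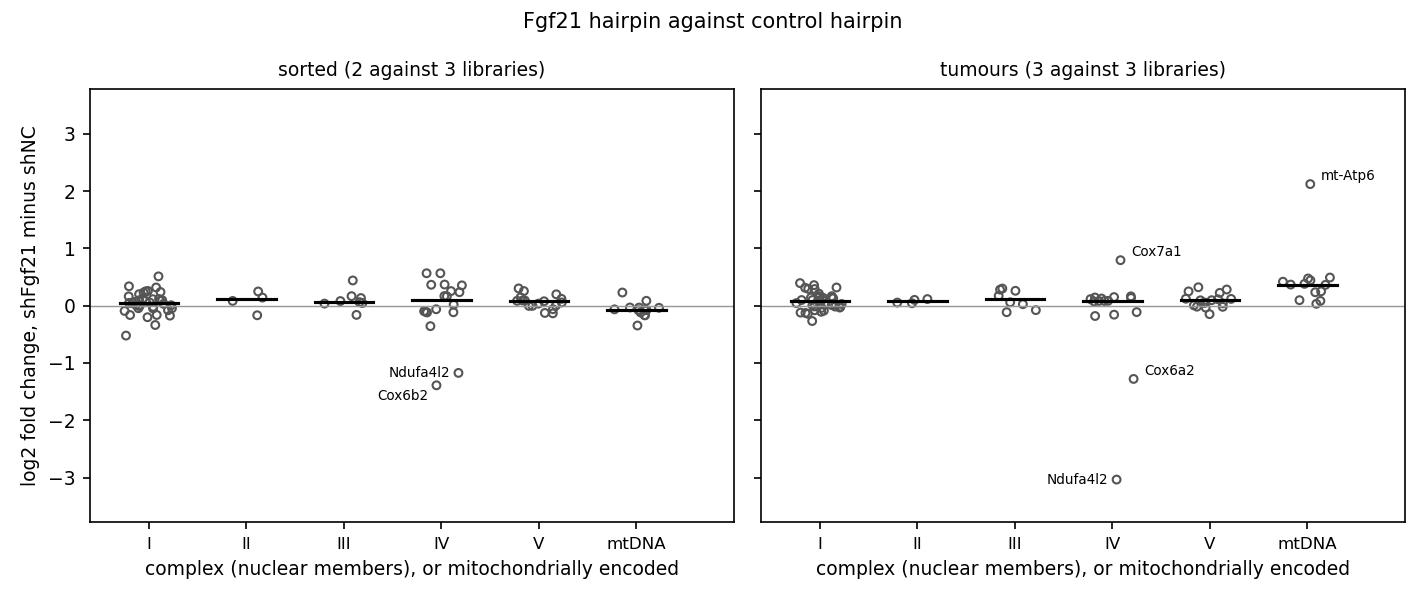
Log2 fold change, shFgf21 minus shNC, of every tested member in sorted libraries (left) and tumours (right), with nuclear members by complex and mitochondrially encoded members (mtDNA) at the right of each panel. Each open circle is 1 gene, none of which passed an adjusted p of 0.05, and the bars are medians; most circles lie near 0, with Ndufa4l2 low in both panels and mt-Atp6 high in tumours.

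The nuclear member with the smallest p in both kinds of sample was Ndufa4l2 (ENSMUSG00000040280, chromosome 10, 127514967 to 127517154, mm10). It is a paralog of the complex IV subunit Ndufa4 that cells induce when oxygen is short. The shNC sorted libraries held 60, 52 and 67 counts and the shFgf21 sorted libraries 28 and 23. The shNC tumours held 23, 30 and 21 counts and the shFgf21 tumours 7, 0 and 1. In both kinds of sample every shFgf21 library was under every shNC library. The log2 fold change was -1.17 ± 0.26 (SE, adjusted p = 0.211 by edgeR) in sorted libraries and -3.03 ± 0.76 (adjusted p = 0.504 by edgeR) in tumours, so neither passed the threshold. Over the alternatives, replicate leave-outs aside, the adjusted p ran from 0.098 to 0.942 in sorted libraries and from 0.0489 (with the replicate number as a block) to 0.586 in tumours. Groups without overlap are common here: 29.8% of all genes tested in sorted libraries and 11.8% in tumours had none. Ndufa4 itself, the ordinary subunit, was at 19.1 ± 2.66 and 17.8 ± 1.47 CPM in sorted libraries (SD, n = 3 and n = 2) and 15.4 ± 2.85 and 16.8 ± 2.27 CPM in tumours (SD, n = 3 each), with overlapping groups in both. The 3′ end of Ndufa4l2 overlaps Shmt2, and its counts are low, so its level rests on few reads.

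The 14 genes of a hypoxia response list (targets that HIF is known to induce) had median log2 fold changes of -0.17 in sorted libraries and -0.26 in tumours, and 0 of 14 passed in either. In each kind of sample 12 of 14 were lower with shFgf21, beside 8516 of 16454 genes tested in sorted libraries and 7657 of 14950 in tumours. Car9, a carbonic anhydrase, had the smallest p in tumours: its counts were 201, 386 and 419 in shNC and 144, 111 and 139 in shFgf21, a log2 fold change of -1.19 ± 0.22 (adjusted p = 0.263 by edgeR). Adm, the peptide hormone adrenomedullin, had 53, 41 and 26 counts in shNC tumours and 9, 4 and 9 in shFgf21 tumours (adjusted p = 0.396). In sorted libraries Adm had 241, 162 and 317 counts in shNC and 87 and 80 in shFgf21 (adjusted p = 0.13). Hk2, a hexokinase of the same list, was higher with shFgf21 in sorted libraries, at a log2 fold change of 0.61 ± 0.12 (adjusted p = 0.178 by edgeR).

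The other alternative isoforms of complex IV were rare in all libraries. Cox4i2, the lung and low-oxygen form of Cox4i1, had 24, 43 and 28 counts in shNC sorted, 35 and 57 in shFgf21 sorted, 6, 2 and 1 in shNC tumours and 0 in all 3 shFgf21 tumours. Cox7a1, known from heart and skeletal muscle, had 22, 22 and 24, then 38 and 27, in sorted libraries, and 8, 8 and 9, then 13, 11 and 16, in tumours. Its groups did not overlap in either kind of sample, at log2 fold changes of 0.57 ± 0.32 (adjusted p = 0.563) and 0.79 ± 0.39 (adjusted p = 0.833 by edgeR). Cox6a2, also a muscle form, had 55, 139 and 39 counts in shNC tumours and 38, 15 and 33 in shFgf21 tumours, a log2 fold change of -1.28 ± 0.49 (adjusted p = 0.76). The highest value was shNC tumour replicate 2. Cox6b2, known from testis, had 7, 15 and 11, then 6 and 2, counts in sorted libraries and 0 in all 6 tumours. Cox8b had 1 count in a sorted library and 3 in a tumour, and Cox7b2 and Cox8c had 0 everywhere. Muscle markers summed to 3.43 to 4.70 CPM in sorted libraries and 1.55 to 3.12 CPM in tumours, with Myh4 at 0 in tumours. Of the 2 brown fat markers Cidea was at 0 in every library and Ucp1 had 3 to 19 counts in sorted libraries.

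**Figure D2:**
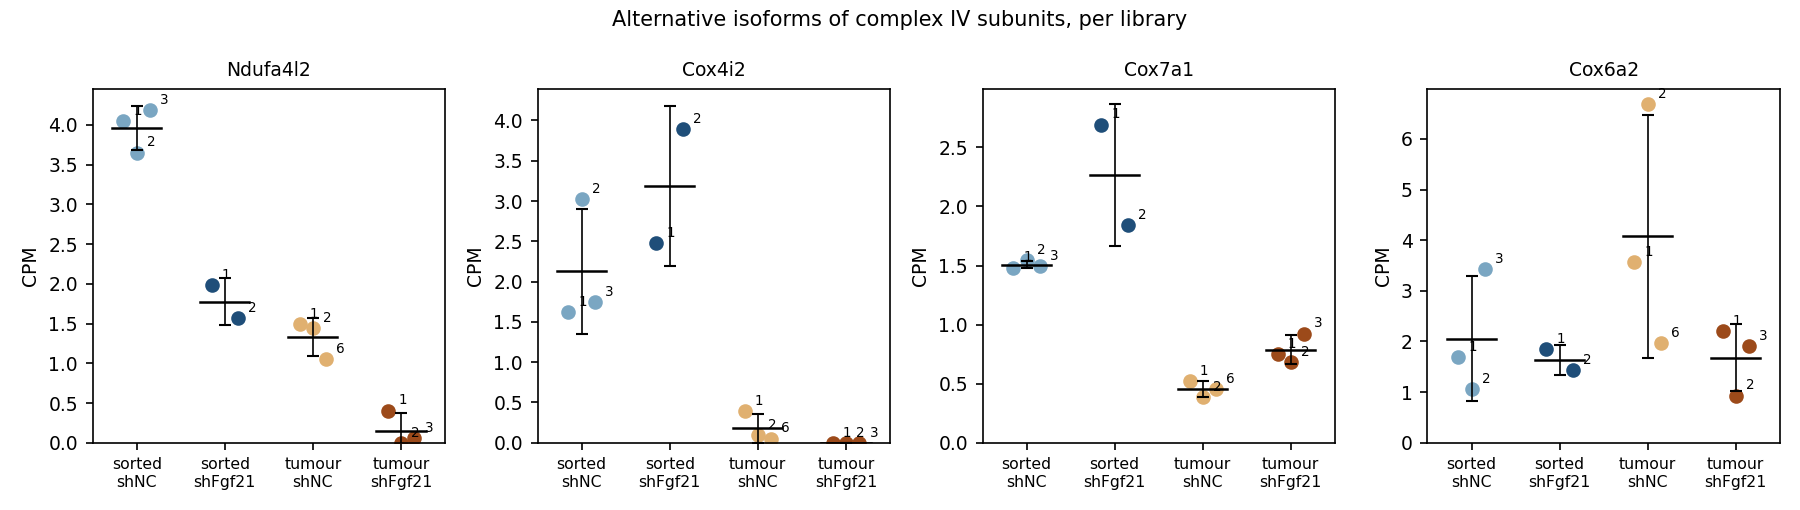
CPM (linear axes) of Ndufa4l2, Cox4i2, Cox7a1 and Cox6a2 in each of the 4 groups, with 1 numbered point per library, the bar at the group mean and whiskers of 1 SD. Ndufa4l2 lies at 3.65 to 4.18 CPM in shNC sorted libraries, 1.57 and 1.98 in shFgf21 sorted, 1.06 to 1.49 in tumours with shNC and 0 to 0.405 in tumours with shFgf21, and Cox6a2 reaches 6.69 CPM in shNC tumour replicate 2.

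Among other nuclear members, those with the smallest p on the higher side in sorted libraries were small subunits, and none passed. Uqcr11 of complex III was at 19.5, 22.5 and 22.4 CPM in shNC and 25.5 and 33.6 in shFgf21, a log2 fold change of 0.44 ± 0.15 (adjusted p = 0.366). Cox8a was at 132, 146 and 164, then 168 and 213, CPM (0.35 ± 0.13, adjusted p = 0.395), and Atp5j, coupling factor F6 of ATP synthase, at 60.7, 75.3 and 66.1, then 83.0 and 85.2, CPM (0.30 ± 0.12, adjusted p = 0.406 by edgeR). In each of the 3 the higher shFgf21 value was replicate 2, in which the nuclear members as a whole lay above the mean of all sorted libraries. On the lower side were Cox6b2 and Ndufv2, a core subunit of the NADH-oxidising arm. Ndufv2 was at 55.3, 75.05 and 62.6, then 46.2 and 57.0, CPM (-0.34 ± 0.16, adjusted p = 0.485 by edgeR). In tumours the smallest p on the higher side belonged to Uqcrfs1 (69.2, 62.1 and 59.2, then 84.5, 77.1 and 71.0 CPM, adjusted p = 0.815), Atp5g3 (adjusted p = 0.825) and Cox7a1. Ndufs5, an accessory subunit of complex I, followed Ndufa4l2 and Cox6a2 on the lower side at -0.27 ± 0.18 (adjusted p = 0.886). Ndufs6, the zinc-binding subunit of complex I, was at 20.7 CPM in shFgf21 sorted replicate 2 and 22.2 CPM in shFgf21 tumour replicate 1 against 7.53 to 13.1 CPM in the other 9 libraries. Its log2 fold changes of 0.34 and 0.29 turned to -0.25 and -0.42 without those libraries.

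No complex II gene passed the test in any comparison. Sdha was at 133, 141 and 156 CPM in shNC sorted, 156 and 189 in shFgf21 sorted, 128, 134 and 122 in shNC tumours and 157, 127 and 130.3 in shFgf21 tumours. Sdhb, the iron-sulfur subunit, stayed between 77.6 and 104 CPM, Sdhc, an anchor, between 93.1 and 112, and Sdhd between 75.4 and 117 over all 11 libraries. The log2 fold changes of the 4 with shFgf21 ran from -0.17 to 0.25 in sorted libraries and from 0.04 to 0.12 in tumours.

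The mitochondrially encoded members had a median log2 fold change of -0.08 in sorted libraries, where 11 of 13 were lower with shFgf21, and of 0.37 in tumours, where 13 of 13 were higher. None passed. Together they took 3.67, 3.74 and 2.62% of all counts in shNC sorted, 3.13 and 2.88% in shFgf21 sorted, 2.17, 2.17 and 2.50% in shNC tumours and 2.16, 3.27 and 2.57% in shFgf21 tumours. The nuclear members took 0.523 to 0.644% in every library. The tumour groups overlapped, and shFgf21 tumour replicate 2 was highest. Its mitochondrial members deviated by a median of 0.51 (log2) from the mean of all tumour libraries, both hairpins together. Without that replicate the tumour median log2 fold change was 0.19. The mitochondrial ribosomal RNAs went another way, taking 0.204 to 0.298% of counts with shNC and 0.129 to 0.175% with shFgf21 in tumours. In tumours mt-Cytb, the complex III subunit, was at 1573, 1442 and 1689 CPM in shNC and 1869.7, 2472 and 1977 CPM in shFgf21 (0.42 ± 0.15, adjusted p = 0.708), and mt-Nd6, the light-strand gene of complex I, at 287, 258 and 312, then 324, 542 and 345 CPM (0.49 ± 0.21, adjusted p = 0.795 by edgeR). Log2 fold changes of mt-Nd1, mt-Nd2, mt-Nd3, mt-Nd4, mt-Nd4l, mt-Nd5, mt-Co1, mt-Co2, mt-Co3 and mt-Atp8 in tumours lay between 0.03 and 0.47.

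The exception in size was mt-Atp6 (mitochondrial positions 7927 to 8607, mm10), subunit a of ATP synthase, which forms the proton path beside the rotor. Its counts were 8036, 7802 and 6489 in shNC sorted, 5970 and 5438 in shFgf21 sorted, 4170, 6743 and 7232 in shNC tumours and 22458, 40512 and 6633 in shFgf21 tumours. The excess lay in shFgf21 tumour replicates 1 and 2, and replicate 3 was within the range of shNC tumours in counts and just above it in CPM. The log2 fold change in tumours was 2.12 ± 0.54 (adjusted p = 0.507 by edgeR), and 1.39 without shFgf21 replicate 2. The neighbouring gene mt-Atp8, read from the same transcript and overlapping it, had 4614, 5434 and 5525, then 4022, 6984 and 5633 counts and showed no such excess.

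Part of the mitochondrial genome has a near-identical copy in nuclear DNA on chromosome 1, and 7 members have a listed gene there. To show how alike they are, the first 100 bases of mt-Atp6 and of its copy Gm10925 (chromosome 1, 24613974 to 24614651, mm10) follow, from GENCODE M21 transcripts, with the 43 bases that mt-Atp6 shares with mt-Atp8 in capitals.
mt-Atp6: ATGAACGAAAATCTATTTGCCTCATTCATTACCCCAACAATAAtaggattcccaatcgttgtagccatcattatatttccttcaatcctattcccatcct
Gm10925: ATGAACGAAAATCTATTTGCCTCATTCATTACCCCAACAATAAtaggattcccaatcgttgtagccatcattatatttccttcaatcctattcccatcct
Over 678 aligned bases the pair had 0 differences, so a read from inside either cannot be told from the other. The only difference in the 7 pairs was in mt-Co1, at position 1066 counted from its first base (A1066T, over 483 aligned bases), and it is in capitals here.
mt-Co1: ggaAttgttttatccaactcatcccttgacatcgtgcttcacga
Gm29216: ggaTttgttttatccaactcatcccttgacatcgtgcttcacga

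The split of counts between each member and its copy was steady from library to library for 6 pairs and not for mt-Atp6. The ratio of member to copy counts ran from 0.884 to 1.04 for mt-Co2 and Gm28661, from 0.923 to 0.9895 for mt-Co3 and Gm28437, from 0.858 to 1.02 for mt-Nd3 and Gm28438 and from 0.915 to 0.977 for mt-Nd4l and Gm10222. It was 6.68 to 8.02 for mt-Co1 and 2.25 to 2.59 for mt-Nd4, whose copies cover only part of the gene. For mt-Atp6 and Gm10925 it was 0.165 to 0.200 in 9 libraries, 0.853 in shFgf21 tumour replicate 1 and 0.964 in shFgf21 tumour replicate 2. Gm10925 itself had 26338 and 42009 counts in those libraries, against 25029 to 36152 in shNC tumours. With the copies' counts added to the members, a calculation chosen after seeing the data, the tumour log2 fold change of mt-Atp6 was 0.75 (adjusted p = 0.694 by edgeR). How reads were placed between identical copies is not given in the sources used here, and the origin of the excess was not tested.

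**Figure D3:**
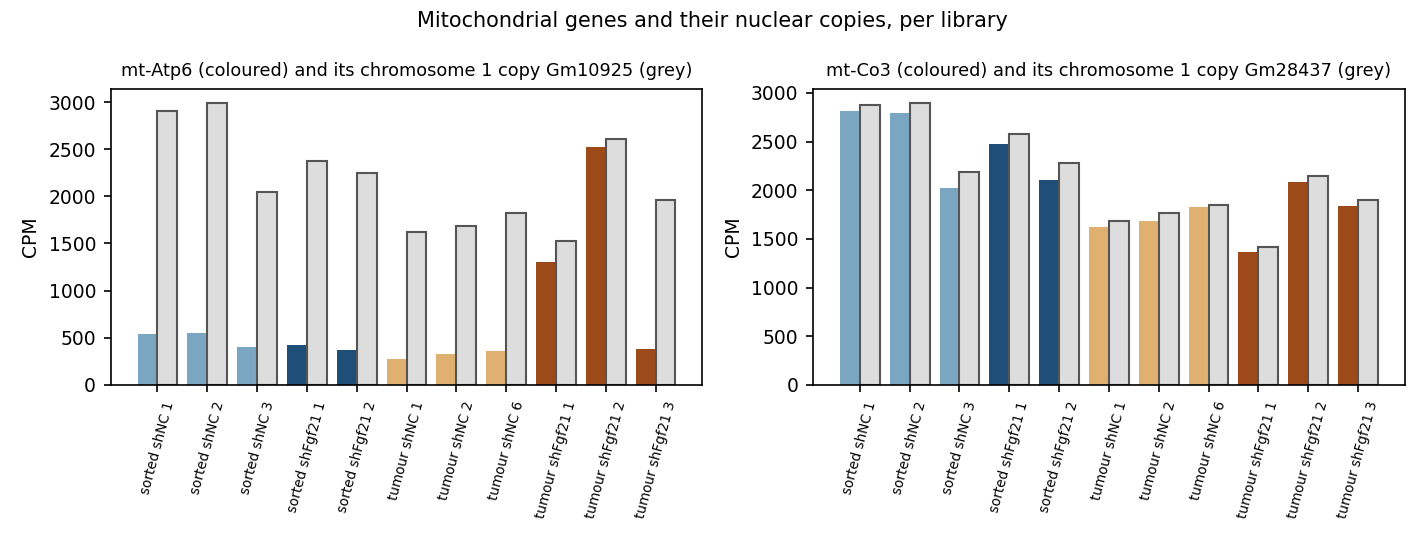
CPM of mt-Atp6 (left, coloured bars) and mt-Co3 (right, coloured bars) beside their chromosome 1 copies Gm10925 and Gm28437 (grey bars) in each of the 11 libraries. The mt-Co3 bars follow their copy throughout, and the mt-Atp6 bars lie between 271 and 548 CPM except for shFgf21 tumour replicates 1 and 2 (1299 and 2519.5 CPM).

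Whether the hairpin difference itself depended on the kind of sample was tested as an interaction over all 4 groups. None of 97 members passed, and 0.00577% of 17327 genes did (1 gene); at an unadjusted p under 0.05 there were 4 members, against 4.77% of all genes, and DESeq2 called 0 members. The smallest p was that of mt-Atp6 (-2.46 ± 0.71, adjusted p = 0.897 by edgeR), at -0.97 with the copies added. For Ndufa4l2 the sorted-minus-tumour difference of log2 fold changes was 1.87 ± 0.82 (adjusted p = 1 by edgeR). All 13 mitochondrial members had a negative sign, with a median of -0.28, beside 0.009 for nuclear members and 0.02 over all genes tested.

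Between the kinds of sample every member called by edgeR was higher in sorted libraries. In the shNC libraries 27 of 83 nuclear and 9 of 13 mitochondrial members were higher in sorted libraries than in tumours and 0 were lower, while 19.1% of all 16104 genes tested were higher and 11.9% lower (edgeR quasi-likelihood test, adjusted p under 0.05). In the shFgf21 libraries, none of which is in the shNC comparison, 20 of 83 nuclear and 3 of 13 mitochondrial members were higher and 0 lower, beside 22.7% and 13.1% of 16229 genes. In the shFgf21 libraries the nuclear and mitochondrial shares are both near the background on the higher side. Most members did not pass, and 11 of 83 nuclear members in shNC, and 17 of 83 nuclear and 3 of 13 mitochondrial members in shFgf21, had a negative sign. The nuclear median log2 fold change, sorted minus tumour, was 0.34 in shNC and 0.39 in shFgf21, beside -0.02 and 0.01 over all genes. Summed over the nuclear members, the mean share of all counts was alike in both kinds. It was 0.570% in sorted libraries and 0.564% in tumours with shNC, and 0.578% and 0.573% with shFgf21. The medians thus describe single genes and not a larger nuclear total. Called in both were 18 members, 50% of the 36 called in shNC and 78.3% of the 23 called in shFgf21. A larger number of cells of 1 type and more RNA per cell cannot be told apart in these bulk libraries. The calls depended on single libraries: the total ran from 17 (without shNC sorted replicate 2) to 42 (without shNC tumour replicate 2) in shNC, and from 4 (without shFgf21 sorted replicate 2) to 47 (without shFgf21 tumour replicate 1) in shFgf21, where no filter on low counts left 8.

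**Figure D4:**
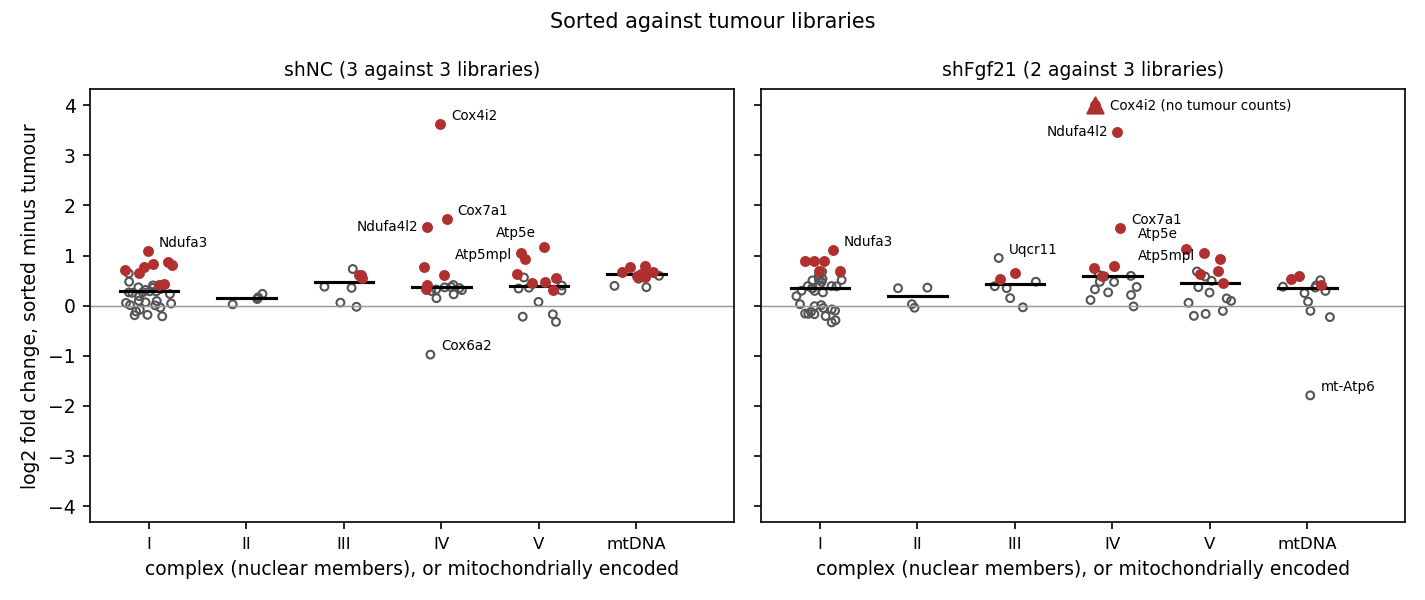
Log2 fold change, sorted minus tumour, of every tested member in shNC (left) and shFgf21 (right) libraries by complex, with mitochondrially encoded members at the right of each panel. Filled circles passed an adjusted p of 0.05, open circles did not, bars are medians, and the triangle marks Cox4i2, which had no counts in shFgf21 tumours and is drawn at the axis limit; all filled points lie above 0.

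The largest called differences were in 3 alternative isoforms of complex IV. Cox4i2 passed the filter on low counts only through the sorted libraries, as did Cox7a1 in shNC and Ndufa4l2 in shFgf21. Their place among the largest calls is therefore not independent of that filter. None of the 3 was tested where a mean of 5 CPM was required. Cox4i2 (chromosome 2, 152754173 to 152765037) was at 2.13 ± 0.774 (SD, n = 3) CPM in shNC sorted libraries, against 0.179 ± 0.184 (SD, n = 3) CPM in shNC tumours. Its log2 fold change was 3.63 ± 0.63 (adjusted p = 0.00328 by edgeR). In shFgf21 it was at 2.48 and 3.89 CPM in sorted libraries and at 0 in tumours, at least 17.9-fold higher by a floor of 3 counts per library (adjusted p = 0.000459 by edgeR), and with Cox4i2 at that bound the nuclear median stayed at 0.39. Cox7a1 (chromosome 7, 30184144 to 30186078) was at 1.51 ± 0.0320 against 0.453 ± 0.0673 CPM in shNC (SD, n = 3 each), with a difference of 1.73 ± 0.32 on the log2 scale (adjusted p = 0.00469 by edgeR), and at 1.54 ± 0.37 in shFgf21 (adjusted p = 0.0138, and 0.15 without shFgf21 sorted replicate 1). Ndufa4l2 was higher by 1.57 ± 0.27 in shNC (adjusted p = 0.00291) and by 3.46 ± 0.79 in shFgf21 (adjusted p = 0.0104), where without shFgf21 sorted replicates 1 or 2 the adjusted p was 0.0758 or 0.0576. Cox6a2 went the other way in shNC, at -0.98 ± 0.55 (adjusted p = 0.222), and was at -0.02 in shFgf21. The ordinary forms differed less, and so did Cox7a2l, a Cox7a-related gene. Cox4i1 differed by 0.32 and 0.47, Cox6a1 by 0.35 and 0.47 and Cox7a2 by 0.42 and 0.21. Cox8a differed by 0.37 and 0.59, Ndufa4 by 0.31 and 0.11 and Cox7a2l by 0.34 and 0.37. Of these, Cox7a2 and Cox7a2l passed, in shNC. Cox6b1 passed in both, at 0.62 and 0.75.

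After these isoforms, the largest called differences in both comparisons were in 3 subunits of complex V and 1 of complex I. Atp5e, the epsilon subunit of the catalytic head, was at 96.6, 110.4 and 105 CPM in sorted shNC libraries, 98.3 and 121 in shFgf21 sorted, 40.0, 54.9 and 44.3 in shNC tumours and 56.9, 49.7 and 45.6 in shFgf21 tumours, with no overlap between kinds. Its log2 fold changes were 1.17 ± 0.14 (adjusted p = 0.000518) and 1.14 ± 0.15 (adjusted p = 0.00066 by edgeR). Such non-overlap is common between kinds. In shNC, 4098 of 16104 genes tested had every sorted library above every tumour, and 3501 below. In shFgf21 the numbers were 5224 and 4801 of 16229. Atp5mpl, a small membrane subunit of ATP synthase, was at 31.7, 35.3 and 35.3, then 31.6 and 37.3 CPM in sorted libraries, against 17.9, 16.8 and 14.5, then 13.8, 19.6 and 17.7 CPM in tumours (1.06 ± 0.14 and 1.04 ± 0.19, adjusted p = 0.000669 and 0.00343 by edgeR). Atp5l, subunit g of the membrane part, had a low level per length (2.02 FPKM in sorted libraries and 1.21 in tumours) and was at 14.6, 16.0 and 17.0, then 16.9 and 19.9 CPM, against 9.29, 7.22 and 8.55, then 10.9, 7.59 and 10.9 CPM (0.93 ± 0.17 and 0.94 ± 0.21, adjusted p = 0.00462 and 0.0104, the latter 0.101 without shFgf21 sorted replicate 2). Ndufa3, an accessory subunit of complex I, was at 20.6, 24.5 and 28.3, then 25.2 and 34.1 CPM, against 7.92, 15.02 and 11.4, then 20.1, 11.3 and 10.9 CPM (1.09 ± 0.24 and 1.10 ± 0.28, adjusted p = 0.0108 and 0.017). Its shFgf21 call was lost without shFgf21 sorted replicate 2 (adjusted p = 0.149), without shFgf21 tumour replicate 2 (0.0531) and with no filter (0.0666).

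Also called in both comparisons were the complex I accessory subunits Ndufb1-ps (0.83 and 0.88), Ndufa8 (0.76 and 0.89) and Ndufv3 (0.64 and 0.90), the complex IV subunit Cox5a (0.77 and 0.58), Uqcrb of complex III (0.62 and 0.66), Atp5md (0.55 and 0.64) and Atp5j (0.46 and 0.69). Ndufc1 (0.87) and Ndufb7 (0.80) were called in shNC, and Cox7c (0.79) in shFgf21. The Ndufv3 call in shFgf21 was lost without shFgf21 sorted replicate 2 (adjusted p = 0.204), without shFgf21 tumour replicate 3 (0.0501) and with no filter (0.0786).

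The nuclear core subunits of complex I and the alpha and beta subunits of the catalytic head of complex V were not called by edgeR. Mitochondrially encoded core subunits of complex I were: mt-Nd1 and mt-Nd3 in both comparisons and mt-Nd4 in shNC. Among catalytic subunits of complexes III and IV, mt-Co1 was called in both comparisons, and Uqcrfs1 and mt-Cytb in shNC only. The 7 nuclear core subunits of complex I, which carry its flavin, iron-sulfur clusters and quinone site, had a median of 0.005 in shNC and -0.16 in shFgf21 with 0 called, against 0.35 and 0.40 with 9 and 6 called of the 30 accessory subunits. The 6 accessory calls in shFgf21 are near the background of 22.7%, and the difference between core and accessory subunits was not tested. Ndufs1, which holds several of the clusters, was at 63.9, 59.96 and 72.5, then 56.5 and 58.9 CPM in sorted libraries and 79.8, 71.9 and 71.7, then 72.4, 77.9 and 71.9 CPM in tumours. Its log2 fold change in shFgf21 was -0.33 ± 0.13 (adjusted p = 0.0731 by edgeR), and the adjusted p was 0.0434 by DESeq2 and 0.0431 by edgeR without shFgf21 tumour replicate 1. Atp5a1, of the catalytic head, was at 533, 537 and 524, then 538 and 609.5 CPM in sorted libraries and 712, 677 and 611, then 705, 669 and 645 CPM in tumours (-0.32 ± 0.11 in shNC, adjusted p = 0.0561 by edgeR and 0.0457 by DESeq2). Atp5b, the catalytic beta subunit, differed by -0.22 and -0.11, and the complex III core proteins Uqcrc1 and Uqcrc2 by 0.06 and -0.02 in shNC. Uqcrfs1, the Rieske protein of complex III, was called higher in shNC at 0.55 ± 0.12 (adjusted p = 0.0105 by edgeR) and not in shFgf21, at 0.35 ± 0.14 (adjusted p = 0.0766), and mt-Co1 and mt-Cytb, catalytic subunits of complexes IV and III, are given with the mitochondrial members. Of the 4 complex II genes 0 were called, with medians of 0.15 and 0.19.

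Gene length moved with these differences. The length implied by the FPKM values gave nuclear members under 1200 bases a median log2 fold change of 0.48 in shNC, those of 1200 to 4000 bases 0.34 and those over 4000 bases 0.12. Over all protein-coding genes tested, these classes had medians of 0.46, 0.09 and -0.05 in shNC and of 0.48, 0.16 and -0.0008 in shFgf21, where the members had 0.56, 0.39 and 0.21. The short members were thus close to other short genes, and the medians of the middle and long members were above those of all genes of their length. The part of length in the members' difference was not tested. Cytosolic ribosomal protein genes had medians of -0.05 and 0.03, with 3 higher and 3 lower called of 97 in shNC and 7 and 4 in shFgf21.

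**Figure D5:**
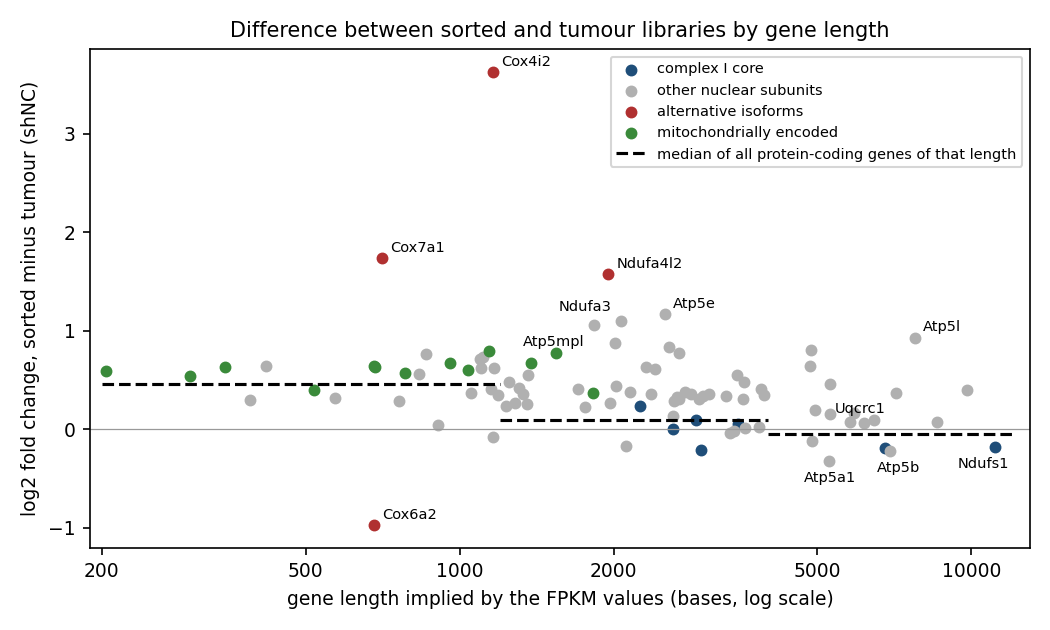
Log2 fold change, sorted minus tumour, in shNC libraries of each tested member against its gene length implied by the FPKM values (log axis). Points are genes, colored by class, and dashed lines are the medians of all protein-coding genes in 3 length classes (0.46, 0.09 and -0.05); the members of the middle class lie mostly above their line and the complex I core lies near 0.

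The promoters of called members are shown here for 3 genes. The 250 bases before the RefSeq start (GRCm38.p6) of Atp5e, Atp5l and Cox7a1, called in both comparisons, follow because the first pair hold searched motifs and the last holds none, with matches to the searched motifs in capitals. They lie at chr2:174464102-174464351 (minus strand), chr9:44920743-44920992 (minus strand) and chr7:30183921-30184170 (plus strand).
Atp5e: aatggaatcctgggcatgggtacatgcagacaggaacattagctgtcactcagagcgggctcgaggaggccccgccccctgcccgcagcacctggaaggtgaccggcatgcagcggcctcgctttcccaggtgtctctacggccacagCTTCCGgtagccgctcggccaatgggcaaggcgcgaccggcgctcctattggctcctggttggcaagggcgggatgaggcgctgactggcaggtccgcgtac
Atp5l: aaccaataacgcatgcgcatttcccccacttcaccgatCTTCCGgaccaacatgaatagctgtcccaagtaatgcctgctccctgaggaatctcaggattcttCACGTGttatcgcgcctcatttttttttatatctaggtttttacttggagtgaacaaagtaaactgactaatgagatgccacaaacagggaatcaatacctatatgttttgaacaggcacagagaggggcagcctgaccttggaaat
Cox7a1: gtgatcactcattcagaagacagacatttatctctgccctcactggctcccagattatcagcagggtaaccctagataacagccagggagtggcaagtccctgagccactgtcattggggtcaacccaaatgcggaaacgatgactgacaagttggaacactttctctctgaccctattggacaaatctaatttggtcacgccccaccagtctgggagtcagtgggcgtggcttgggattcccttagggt
Each motif was searched on both strands, and none is contained in another. The ETS core CGGAAG was in Atp5e and Atp5l and in 31.1% of 74 windows of 69 matched members, against 13.6% of all 32851 windows. The NRF1 motif was in 5.41% against 0.782%, the YY1 motif in 1.35% (1 window) against 0.301%, and the HIF core ACGTG, found in Atp5l, in 20.3% against 16.6%. The 19 members without a window include Cox4i2, Cox6a2 and Ndufa4l2. In the full RefSeq window of 300 bases, which runs past the start, the YY1 share was 6.76% (5 windows) against 0.852%, and the ETS, NRF1 and HIF shares were 39.2% against 16.9%, 6.76% against 0.971% and 24.3% against 19.6%. These shares are descriptions of letters and not of binding.

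Of the 13 mitochondrially encoded members 9 were called higher in sorted libraries in shNC and 3 in shFgf21, where 22.7% of all genes were. Their median log2 fold change was 0.63 in shNC, where all 13 had a positive sign, and 0.36 in shFgf21, where mt-Nd5, mt-Nd6 and mt-Atp6 had a negative sign. Mt-Co1 was at 19721, 20807 and 14558, then 17961 and 16306 CPM in sorted libraries. In tumours it was at 10382, 10261 and 11758, then 9153, 13606 and 12038 CPM, with no overlap between kinds. Such non-overlap is common among all genes tested, as given with Atp5e. The log2 fold change of mt-Co1 was 0.77 ± 0.17 in shNC (adjusted p = 0.0107) and 0.59 ± 0.19 in shFgf21 (adjusted p = 0.0418 by edgeR). The latter was lost with no filter (0.0762) and without either shFgf21 sorted library (0.186 and 0.113), shFgf21 tumour replicate 1 (0.0834) or replicate 3 (0.0704). In shNC mt-Cytb (0.79), mt-Nd4 (0.67), mt-Nd1 (0.67), mt-Atp6 (0.64), mt-Nd3 (0.63), mt-Co2 (0.63), mt-Atp8 (0.59) and mt-Co3 (0.57) were called as well, and in shFgf21 mt-Nd3 (0.53) and mt-Nd1 (0.42). In shFgf21 mt-Cytb was at 0.38 and passed without shFgf21 tumour replicate 2 (0.50, adjusted p = 0.0242 by edgeR). In shNC sorted replicate 3 the mitochondrial members deviated by a median of -0.31 (log2) from the mean of all sorted libraries, both hairpins together. Without that replicate all 13 passed. Without shNC sorted replicate 1, 3 passed, and without replicate 2, 2 passed: mt-Cytb then had an adjusted p of 0.0511 or 0.0588 and mt-Atp6 of 0.0729 or 0.0829 by edgeR. In shFgf21 mt-Atp6 was lower in sorted libraries by 1.79 on the log2 scale (SE 0.63, adjusted p = 0.0575 by edgeR, and 0.00101 without shFgf21 tumour replicate 3), with the high values again in shFgf21 tumour replicates 1 and 2, and by 0.31 with the copies added.

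Genes that build and serve the complexes did not follow as a block. With the hairpin, 0 of 16 assembly factors of complex I, 0 of 4 of complex II, 0 of 6 of complex III and 0 of 19 of complex IV passed in either kind of sample, and 1 of 5 of complex V was lower in sorted libraries: Tmem70, which helps assemble the ATP synthase rotor, had 441, 346 and 455 counts in shNC and 153 and 162 in shFgf21 (-1.35 ± 0.14, adjusted p = 0.0296 by edgeR). In tumours Tmem70 had 512, 870 and 339, then 567, 817 and 680 counts (adjusted p = 0.908). Of the 22 genes of mitochondrial DNA maintenance and expression 0 passed, with medians of -0.14 and -0.08.

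Between kinds of sample, 6 of 19 complex IV assembly factors were higher in shNC sorted libraries and 4 in shFgf21, with 0 lower, beside 19.1% and 22.7% of all genes higher, so that the shFgf21 count is near the background. Coa4 differed by 2.36 ± 0.41 and 2.21 ± 0.27 and Cox17, a copper chaperone, by 1.12 ± 0.17 and 0.84 ± 0.20 (adjusted p = 0.0018 and 0.012 for Cox17 by edgeR). Sdhaf1, a complex II assembly factor, was higher by 1.21 ± 0.20 and 1.39 ± 0.29. Of 17 citric acid cycle genes 0 were called higher and 3 lower in shNC and 0 and 2 in shFgf21, where 11.9% and 13.1% of all genes were lower, and their medians were -0.19 and -0.23. Suclg2, a subunit of succinyl-CoA synthetase, differed by -0.79 ± 0.11 and -0.69 ± 0.13. Of 8 nuclear regulators of respiration tested, 2 were called higher and 0 lower in shNC and 3 and 1 in shFgf21. Their medians were -0.04 and 0.12, and 5 and 3 of the 8 had a negative sign. Among them Esrra, the nuclear receptor ERR alpha, was higher by 1.39 ± 0.20 and 1.57 ± 0.23, and Ppargc1b, a coactivator, by 1.14 ± 0.29 and 1.60 ± 0.30. Lrpprc, which stabilises mitochondrial mRNAs, was lower by 0.54 and 0.66 on the log2 scale, with 1 of 22 genes of mitochondrial DNA expression lower in each comparison and 0 and 1 higher. Of the 13 electron carriers, with medians of -0.06 and -0.12, 1 was higher and 2 lower in shNC and 1 and 0 in shFgf21. Etfb, of the electron transfer flavoprotein, was higher by 0.63 ± 0.16 and 0.84 ± 0.24, and Dhodh, which passes electrons from pyrimidine synthesis to ubiquinone, and Coq4, of ubiquinone synthesis, were lower in shNC at -0.53 ± 0.15 and -0.51 ± 0.16. Of 78 mitochondrial ribosomal protein genes 4 were higher and 1 lower in shNC and 5 and 2 in shFgf21.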

How the data were processed

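Counts per gene for 11 libraries were deposited by the authors as whole numbers, beside deposited FPKM values of the same libraries, built on mm10 per the submitters' processing notes. The aligner, counting program, annotation and strandedness do not appear in the labels or headers (not given in the sources used here). The FPKM equal count over a fixed length and the library total, within 0.000558% over 9655 genes, and served for levels between genes and for the implied length. Counts of all genes were fitted in R 4.3.3 with edgeR 4.0.16 (filterByExpr, TMM, quasi-likelihood F-test, Benjamini-Hochberg over all genes tested, threshold 0.05, SE as the fold change over the square root of F). CPM use TMM over all 11 libraries. The test was checked on simulated counts. Alternatives were median-ratio size factors, no filter, a mean of 5 CPM, DESeq2 1.42.0, 1 fit of all groups, no mitochondrial genes, the title number as a block, and each library left out. Counts cover counting error only. The members and lists were chosen with earlier results of these data known. Named are the mitochondrial and complex II genes, isoform families, extremes of level, up to 8 called nuclear genes per comparison and direction with the largest change (or the 3 smallest p), and up to 3 genes per other list. Ndufs6, mt-Atp8 and some list members are named beyond this rule, after their values were seen.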

Additional observations from a re-analysis of the deposited data

How the results depend on the processing

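Counts of members called were 0 under every alternative in the sorted hairpin comparison and in the interaction, leave-outs included (0 to 0). In tumours the title number as a replicate block, which 2 of 3 libraries per group share, gave 2 members. They were Ndufa4l2 (-3.01, adjusted p = 0.0489) and mt-Atp6 (2.60, adjusted p = 1.71e-10 by edgeR). The deviations of same-numbered libraries correlated at 0.16 and -0.17, and those of differently numbered libraries at -0.26 to 0.16. So few values cannot show whether the numbers pair the samples. No paired analysis was possible because, in sorted libraries, each title joins several numbers and 2 of the 3 shNC titles share numbers with both shFgf21 titles. Of the sorted-against-tumour counts, that in shNC was 36 (leave-outs 17 to 42) and that in shFgf21 was 23 (leave-outs 4 to 47), with 8 under no filter and 35 with DESeq2. Nuclear medians kept their sign there (leave-outs 0.26 to 0.43 and 0.26 to 0.52) and not with the hairpin (-0.058 to 0.18 in sorted libraries, -0.05 to 0.15 in tumours, -0.12 to 0.16 for the interaction). As a share of protein-coding counts, mitochondrial members took 3.25% in shFgf21 sorted libraries (3.01% of all counts) and 2.49% in shNC tumours (2.28%). Single genes changed sign when 1 library was left out: with the hairpin, Cox6a2 in sorted libraries (-0.67 to 0.23, positive without shNC replicate 3) and Ndufs6 in sorted libraries (-0.25 to 0.75) and tumours (-0.42 to 0.56); between kinds in shFgf21, Cox6a2 (-0.30 to 0.20, positive without sorted replicate 2, 0.15, and without tumour replicates 1, 0.20, or 3, 0.09). The cause was not tested. Genes called moved from 13 to 232 in sorted libraries, from 5 to 115 in tumours and from 1 to 32 for the interaction with DESeq2, and the block called 131. Low counts limit Cox4i2, Cox6b2, Cox7a1 and Ndufa4l2.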
